A study of Mus musculus with 12 samples.

Results

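The subunits of the mitochondrial respiratory chain and of ATP synthase were read in mouse ES cells and in the XEN-like cells made from them, with and without the transcription factor gene Sox7. Members were the array probes whose gene symbol began with Ndufa, Ndufb, Ndufc, Ndufs, Ndufv, Uqcr, Cox4 to Cox8 or Atp5, or was Sdha, Sdhb, Sdhc or Sdhd, a rule that reads the symbol alone. The rule found 136 of 55681 probes, which carried 93 of 34836 gene names. Of these genes, 74 encode constitutive subunits (36 of complex I, 4 of complex II, 8 of complex III, 11 of complex IV and 15 of complex V, the ATP synthase), 8 encode isoforms with restricted expression, 7 are complex I assembly factors named Ndufaf, and 4 share only the name or are of another kind. A gene was read by its brightest probe. All 74 constitutive genes were well above background on all 12 arrays, and 90 of the 93 genes could be tested.

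The 4 groups held 3 one-colour arrays each, of total RNA. All cells carried Gata6-GR, a Gata6 fused to the ligand-binding domain of the glucocorticoid receptor, which dexamethasone (Dex) moves to the nucleus. Sox7 (+/-) ES cells were kept without Dex, and Sox7 (+/-) XEN-like cells were the same line at day 4 of Dex. Sox7 (-/-) ES and XEN-like cells were the corresponding pair of the null line, so that every group lacked at least 1 Sox7 allele and no wild-type cells entered. The study derived the null line from the Sox7 (+/-) line by puromycin selection, so each genotype was 1 line. The sample labels do not say that the arrays of a group came from separate cultures, and the source field gives all 3 Sox7 (+/-) ES arrays the same replicate number, so p-values here measure the spread between arrays.

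The respiratory chain passes electrons from NADH through complex I, or from succinate through complex II, to ubiquinone, then through complex III and cytochrome c to complex IV, which reduces oxygen. Complexes I, III and IV pump protons across the inner mitochondrial membrane, and complex V uses the gradient to make ATP. Nuclear genes encode most subunits and all of complex II, while the mitochondrial genome encodes a core set. Pluripotent cells are known for a strong reliance on glycolysis, and several complex IV subunits exist as ubiquitous and tissue-restricted isoforms.

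The levels given are log2 of the processed signal minus that of the array's 75th percentile, so that 0 is the 75th percentile, and a level of one probe cannot be set against that of another. The Sox7 probe was well above background on all 6 Sox7 (+/-) arrays and on none of the 6 Sox7 (-/-) arrays, at least 24.7-fold lower in null ES cells. The mean level of 10 ES cell markers lay between 4.60 and 4.68 on the Sox7 (+/-) ES arrays, between 5.43 and 5.54 on the null ES arrays, and between -1.50 and 0.03 on the XEN-like arrays. That of 12 extraembryonic endoderm markers lay between 4.82 and 5.17 on ES and between 6.38 and 6.82 on XEN-like arrays. All 12 were well above background on every array, ES arrays included. With Dex, 9 of the 10 ES cell markers were lower and 1 higher in each line (adjusted p under 0.05, limma). Of the 12 endoderm markers, 10 were higher and 1 lower in Sox7 (+/-) cells, and 11 higher and 0 lower in null cells. Fibroblast markers (8 genes) lay between -2.79 and -2.39 on ES arrays and between -4.89 and -4.14 on XEN-like arrays, with Lum and Dcn below background in every group. Trophoblast markers (6 genes, Elf5 below background in every group) lay between -0.80 and -0.66 on Sox7 (+/-) ES, -3.69 and -3.48 on Sox7 (+/-) XEN-like, -2.02 and -1.85 on null ES and -2.84 and -2.33 on null XEN-like arrays. Of the 5 tested trophoblast markers, 5 fell with Dex in Sox7 (+/-) cells (median -3.53), 1 rose and 2 fell in null cells (median 0.06), and 5 had a higher response in null cells. The part of these marker differences in the results below was not tested. Replicate arrays correlated at 0.982 to 0.997, lowest in the Sox7 (+/-) XEN-like group, where replicate 3 stood apart in several members described below. All Sox7 (+/-) arrays were on 1 slide and all null ES arrays on the other, with the null XEN-like arrays on both. The comparison of ES cells therefore depends on the slides as well as on genotype. The Dex response of null cells, the comparison of XEN-like cells and the difference in response depend on the slides in part. Only the Dex response of Sox7 (+/-) cells lay within 1 slide.

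With Dex in the Sox7 (+/-) line, more constitutive subunits were higher than lower when XEN-like cells were set against ES cells under 75th percentile scaling, and none differed by more than 2-fold. Of the 74 genes, 46 were higher, 2 were lower and 26 did not pass at an adjusted p under 0.05 (limma, Benjamini-Hochberg over all probes tested), with a median log2 difference of 0.28. Over all 90 tested members, 51 were higher and 8 lower. Over all 18946 genes tested, 38.6% were higher, 25.4% were lower, and the median was 0.16. More than 2-fold, 0 of the 74 subunits passed in either direction, beside 11.0% of all genes higher and 14.0% lower. By complex, the medians were 0.26 for complex I, where 19 of 36 genes were higher and 2 lower, 0.28 for complex II, 0.33 for complex III, 0.42 for complex IV and 0.29 for complex V.

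The direction of this shift rested on the scaling. Arrays were also scaled to 8 of the spike-in RNAs on the array in place of the 75th percentile. The median over the 74 subunits in Sox7 (+/-) cells then became -0.20, with 2 genes higher and 22 lower. Among all 18946 genes, 2266 were then higher and 8394 lower, and the median moved from 0.16 to -0.32. Both scalings shift every probe of an array alike, so the distance between the subunits and all genes, 0.12, is the same in each by construction. That distance was 0.02 after quantile normalization, 0.07 with normexp background correction and 0.08 with the deposited values. The median level of the 74 subunits was 6.02, 5.99 and 5.96 on the Sox7 (+/-) ES arrays and 6.22, 6.22 and 6.34 on the Sox7 (+/-) XEN-like arrays under 75th percentile scaling, without overlap. Under spike-in scaling the same arrays had 6.33, 6.15 and 6.14 against 6.12, 6.02 and 5.84, where the XEN-like arrays were the lower ones, again without overlap. The spike-ins stood 3.26, 3.40 and 3.38 log2 units above the 75th percentile on the Sox7 (+/-) ES arrays. On the Sox7 (+/-) XEN-like arrays they stood 3.67, 3.77 and 4.07 above it. The reason was not tested, and neither scaling used a count of cells, so neither gives RNA per cell. Fewer cells of a kind and less RNA per cell cannot be told apart in these bulk samples.

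**Figure D1:**
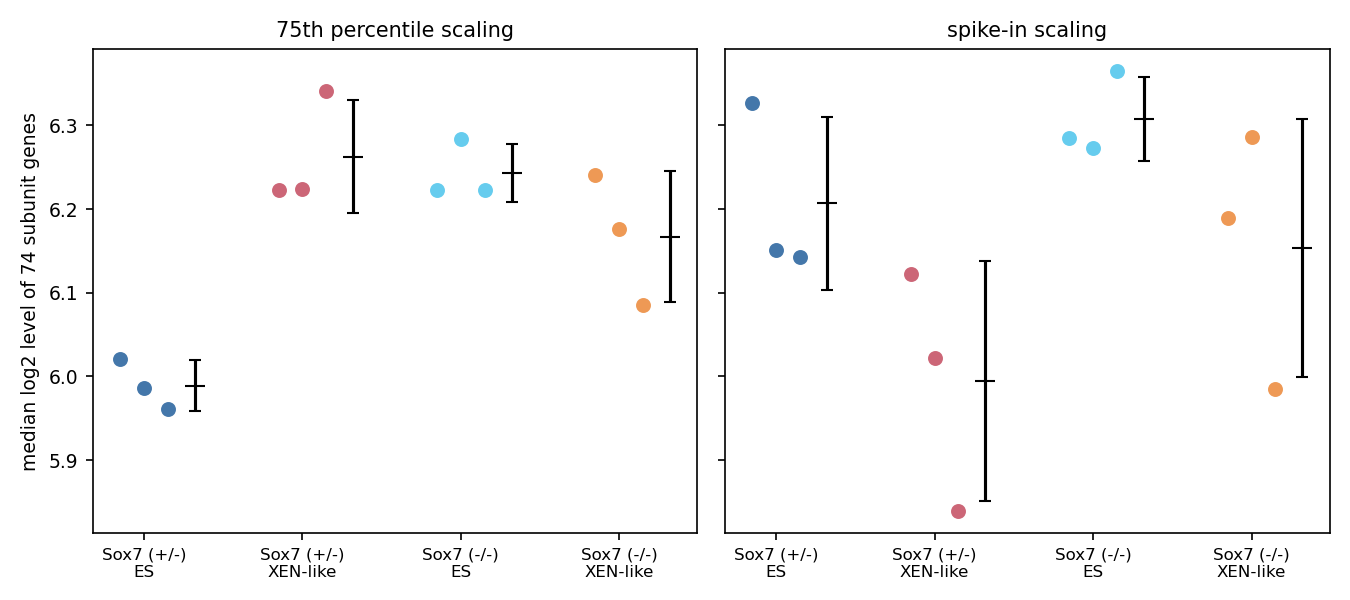
Median log2 level of the 74 constitutive subunit genes on each array (coloured points) under 75th percentile scaling (left) and spike-in scaling (right), with the mean and SD of the 3 arrays of a group in black. Sox7 (+/-) XEN-like arrays lie above Sox7 (+/-) ES arrays on the left (6.22 to 6.34 against 5.96 to 6.02) and below them on the right (5.84 to 6.12 against 6.14 to 6.33).

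In Sox7 (-/-) cells the same comparison split the subunits. XEN-like cells had 13 of the 74 genes higher and 20 lower than ES cells, with a median of -0.02, beside 34.4% of all genes higher, 31.9% lower and a median of 0.07. Over the 90 tested members, 17 were higher and 28 lower. More than 2-fold, 0 of the 74 passed, beside 14.5% of all genes higher and 14.1% lower. Complex I held 13 of the 20 falls, with 7 of its 36 genes higher (median -0.12). Its share of lower genes, 36.1%, was near the 31.9% of all genes. Complex IV had 4 of 11 lower and 0 higher at the threshold (median -0.09), and complexes II and III had medians of 0.06 and 0.02. With spike-in scaling 5 of the 74 were higher and 19 lower, beside 5138 and 5913 of all 18946 genes. The fit with the slide as a block rests on the single null XEN-like array that shared a slide with the null ES arrays. In it 9 subunits were higher and 9 lower, beside 5192 and 4927 of all 18946 genes. Complex I then had 4 genes higher and 7 lower, with a median of 0.02.

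Among complex I subunits, Ndufc2, an accessory subunit of the membrane arm, was one of 3 members with the largest rises in Sox7 (+/-) cells. Its levels were 4.93, 4.91 and 4.86 in Sox7 (+/-) ES cells, 5.68, 5.71 and 5.90 in Sox7 (+/-) XEN-like cells, 5.33, 5.33 and 5.24 in null ES cells and 5.96, 5.92 and 5.91 in null XEN-like cells. The XEN-like arrays were above the ES arrays in both lines without overlap, by 0.86 ± 0.07 (SE, n = 3 per group, adjusted p = 2.4e-06) and 0.63 ± 0.07 (adjusted p = 2.1e-05) on the log2 scale. It stayed higher in both lines with spike-in scaling, by 0.38 and 0.55. Ndufa2, a subunit of the peripheral arm, rose by 0.63 in Sox7 (+/-) cells.

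Ndufv1, which binds the FMN that accepts electrons from NADH, had levels of 6.13, 6.13 and 6.02 in Sox7 (+/-) ES cells and 5.87, 5.84 and 6.15 in Sox7 (+/-) XEN-like cells, which overlapped. In the null line it had 6.58, 6.62 and 6.49 in ES cells against 5.97, 5.90 and 5.83 in XEN-like cells, without overlap, a difference of -0.66 ± 0.09 (adjusted p = 9.5e-05). The accessory subunit Ndufa9 had 0.08 in Sox7 (+/-) cells, not past the threshold, and fell in null cells with -0.25. Ndufb9, a membrane arm subunit, had the largest fall of the constitutive genes in null cells, -0.67 ± 0.07 (adjusted p = 1.5e-05). Ndufs1, the largest core subunit, did not pass in either line, with differences of 0.06 and -0.13.

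Complex II, the succinate dehydrogenase, had all 4 of its genes measured. Sdhd, which anchors the enzyme in the membrane, had levels of 5.30, 5.21 and 5.19 in Sox7 (+/-) ES cells, 5.76, 5.78 and 5.90 in Sox7 (+/-) XEN-like cells, 5.63, 5.64 and 5.48 in null ES cells and 6.18, 6.23 and 6.09 in null XEN-like cells. All 4 groups were separate. It rose by 0.58 ± 0.07 in Sox7 (+/-) cells (adjusted p = 6.3e-05) and by 0.59 ± 0.07 in null cells (adjusted p = 4.8e-05). The difference between these responses was 0.01 ± 0.10 (adjusted p = 0.97), which does not show that they were equal. With spike-in scaling the differences were 0.09, not past the threshold, and 0.51, which passed, and the responses differed by 0.41, not past the threshold.

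Sdhb, the iron-sulfur subunit, moved in opposite directions in the 2 lines under 75th percentile scaling. It had levels of 6.08, 6.11 and 6.11 against 6.33, 6.29 and 6.39 in Sox7 (+/-) ES and XEN-like cells, and 6.41, 6.41 and 6.37 against 6.22, 6.15 and 6.07 in the null pair, with no overlap in either. The differences were 0.23 ± 0.06 (adjusted p = 0.0076) and -0.25 ± 0.06 (adjusted p = 0.0043), and the responses differed by -0.49 ± 0.09 (adjusted p = 0.0028). With spike-in scaling the differences were -0.25 and -0.33, of which the second passed, and the responses differed by -0.08, not past the threshold. With the slide as a block, no complex II gene passed as lower in null XEN-like cells, so the fall of Sdhb there was not kept. Among all 18946 genes, 4927 were lower in that fit. Sdha, the flavoprotein, rose by 0.33 in Sox7 (+/-) cells and differed by 0.04 in null cells, and Sdhc, the other membrane anchor, had 0.18 and 0.08, neither past the threshold.

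In complex III, Uqcrh, the hinge protein beside cytochrome c1, had the largest rise of any member in Sox7 (+/-) cells. Its levels were 6.54, 6.49 and 6.36 in Sox7 (+/-) ES cells and 7.24, 7.27 and 7.55 in XEN-like cells, and 6.80, 6.86 and 6.79 against 7.41, 7.19 and 7.13 in the null pair. The XEN-like arrays were the higher ones in both lines, by 0.89 ± 0.10 (1.85-fold, adjusted p = 3.4e-05) and 0.43 ± 0.10 (adjusted p = 0.0044). Its second probe gave 0.93 and 0.52. The Rieske protein gene Uqcrfs1 rose by 0.37 and 0.30, whereas the core protein gene Uqcrc1 had -0.10 in Sox7 (+/-) cells, not past the threshold, and fell in null cells with -0.40.

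In complex IV, Cox4i1, the ubiquitous form of subunit IV, had levels of 7.47, 7.46 and 7.39 in Sox7 (+/-) ES cells and 7.81, 7.94 and 7.94 in XEN-like cells, without overlap, a rise of 0.46 ± 0.08 (adjusted p = 0.00089). In the null line, 7.80, 7.95 and 7.81 in ES cells overlapped with 7.87, 7.61 and 7.65 in XEN-like cells. Of the other structural subunits, Cox5b rose by 0.46 in Sox7 (+/-) cells, and Cox5a fell in null cells with a difference of -0.37. With spike-in scaling Cox4i1 and Cox5b had -0.03 and -0.02 in Sox7 (+/-) cells. In complex V, Atp5g3, one of 3 genes for the membrane ring subunit c, rose by 0.61 ± 0.14 in Sox7 (+/-) cells and 0.41 ± 0.14 in null cells. The other genes for the same subunit, Atp5g1 and Atp5g2, did not pass in either line, with differences of -0.20 and 0.15 in Sox7 (+/-) cells. Atp5b, the catalytic beta subunit, had 0.18 and -0.17, neither past the threshold, while Atp5c1, the central stalk subunit, rose by 0.33 in Sox7 (+/-) cells.

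**Figure D2:**
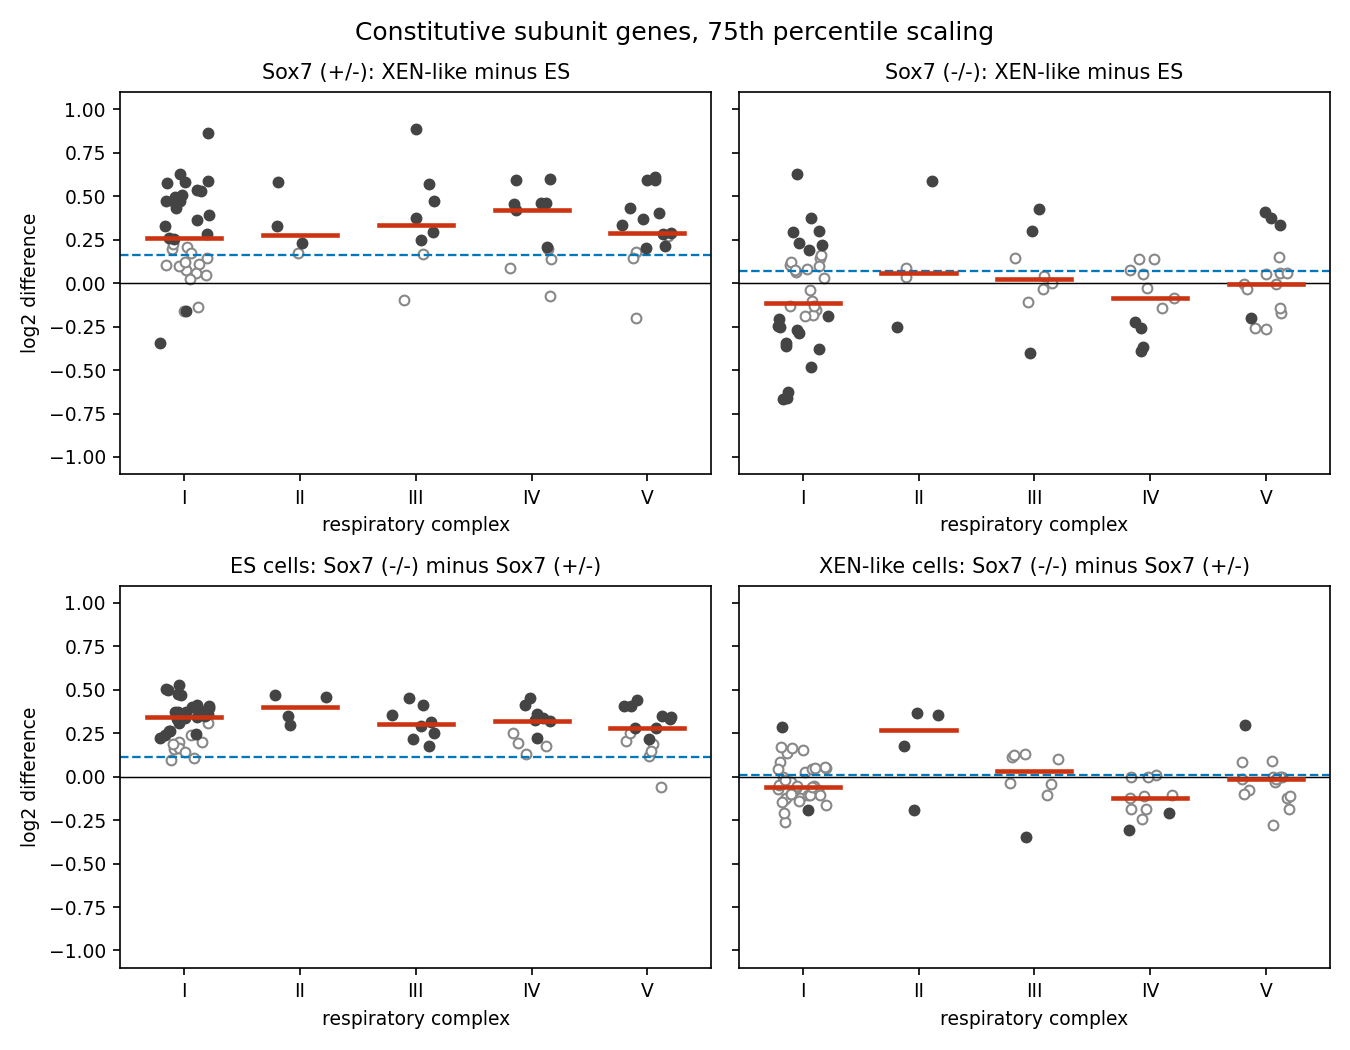
Log2 difference of each constitutive subunit gene by respiratory complex in 4 comparisons under 75th percentile scaling. Filled points passed an adjusted p of 0.05, open points did not, red bars are the medians of a complex and the dashed line is the median of all 18946 genes tested. Points of all complexes lie within 1 log2 unit of 0, mostly above 0 in the left panels.

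The window upstream of the transcription start could be read for 76 of the 93 members in RefSeq's promoter table (GRCm38.p6). Over the 250 bases before the start, on both strands, a motif of GCGC, any 2 bases and GCGC again, which resembles the site of the factor NRF-1, was in 15 of 63 constitutive subunit genes with a promoter (23.8%). It was in 5.64% of all 27025 genes with a promoter and in 11.2% of those also tested on the array. The ETS core CCGGAAG was in 12 of the 63 (19.0%), beside 7.83% and 14.7%, and the estrogen-related receptor element TCAAGGTCA in 1 of the 63. These are matches of letters, not binding sites. Windows are shown for Sdhd and Uqcrh, constitutive subunits that rose in both lines under 75th percentile scaling (Sdhd in the null line alone under spike-in scaling), and for Cox7a1, a restricted isoform that fell. Capitals mark motif matches, and Cox7a1 had none of the 3 motifs. Ndufc2, which also rose in both lines, had none of them either. Ndufb4 and Ndufs6, lower in null XEN-like than null ES cells (-0.34 and -0.38), had the NRF-1-like motif. A link between motif and Dex response was not tested. The windows are chr9:50603850-50604099 (minus strand), chr4:116075071-116075320 (minus strand) and chr7:30183921-30184170 (plus strand).
Sdhd: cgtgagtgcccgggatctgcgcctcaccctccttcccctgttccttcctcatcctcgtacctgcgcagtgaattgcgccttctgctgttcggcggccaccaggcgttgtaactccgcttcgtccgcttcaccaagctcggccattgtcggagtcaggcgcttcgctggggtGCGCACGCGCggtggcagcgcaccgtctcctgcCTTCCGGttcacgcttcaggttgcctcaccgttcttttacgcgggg
Uqcrh: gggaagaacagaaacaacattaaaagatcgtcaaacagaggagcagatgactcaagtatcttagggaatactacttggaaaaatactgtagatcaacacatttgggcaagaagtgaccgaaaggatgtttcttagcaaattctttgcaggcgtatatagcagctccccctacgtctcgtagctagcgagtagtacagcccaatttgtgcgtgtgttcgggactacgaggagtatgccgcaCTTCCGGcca
Cox7a1: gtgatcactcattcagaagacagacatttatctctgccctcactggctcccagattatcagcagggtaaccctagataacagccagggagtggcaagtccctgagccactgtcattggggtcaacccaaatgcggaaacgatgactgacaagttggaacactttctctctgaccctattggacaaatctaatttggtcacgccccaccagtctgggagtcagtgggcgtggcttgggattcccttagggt

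Of the 8 isoform genes, Cox6a2, Cox7b2 and Cox8b were too dim to test. Of the other 5, 3 were lower in Sox7 (+/-) XEN-like cells and 4 in null XEN-like cells, beside 25.4% and 31.9% of all genes, and 1 and 3 of them passed 2-fold. Ndufa4l2 and Cox8c were tested only because ES cells read them above background, so they could only be called lower, and these counts are no support for a direction. With the slide as a block, 2 were lower in null XEN-like cells, both past 2-fold. Of all 18946 genes, 4927 were lower in that fit, 2526 of them past 2-fold. Ndufa4l2, the Ndufa4 relative known as a hypoxia-induced gene, had levels of 2.02, 2.27 and 1.97 in Sox7 (+/-) ES cells and 2.23, 2.09 and 2.01 in null ES cells. In XEN-like cells it was at -5.41, -3.88 and -4.34 in the Sox7 (+/-) line, not well above background on any array, and at -3.26, -4.12 and -3.45 in the null line, with 1 of 3 arrays above that limit. It was at least 45.2-fold lower in Sox7 (+/-) XEN-like cells (adjusted p = 7.2e-08), and it was lower in null XEN-like cells (adjusted p = 1.7e-07), where the size was not measured since 2 of the 3 arrays were not above background. Ndufa4 itself, a constitutive complex IV subunit, had differences of 0.14 and -0.09, neither past the threshold.

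Cox7a1, the heart and muscle form of subunit VIIa, had levels of 3.54, 3.38 and 3.31 in Sox7 (+/-) ES cells and 2.21, 2.21 and 3.42 in Sox7 (+/-) XEN-like cells. Replicate 3 of the XEN-like group lay among the ES arrays, more than 1 log2 unit above the other two. In the null line, 3.92, 3.96 and 3.74 in ES cells and 1.85, 1.82 and 1.74 in XEN-like cells did not overlap. It fell by 0.79 on the log2 scale in Sox7 (+/-) cells (SE 0.27, adjusted p = 0.025) and was -2.07 in null cells as a log2 difference (SE 0.27, 4.19-fold, adjusted p = 6.2e-05). Without that replicate 3 the difference in Sox7 (+/-) cells was -1.20. Cox7a2, the ubiquitous form, rose by 0.42 in Sox7 (+/-) cells and differed by 0.14 in null cells, the latter not past the threshold.

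Cox6b2, the testis form of subunit VIb, was 3.40, 3.50 and 3.41 in Sox7 (+/-) ES cells and 2.94, 3.01 and 3.14 in XEN-like cells, and 3.78, 3.66 and 3.81 against 3.52, 3.46 and 3.45 in the null pair. The XEN-like arrays were the lower ones in both lines, with differences of -0.41 ± 0.07 and -0.27 ± 0.07, and the ubiquitous Cox6b1 rose by 0.59 in Sox7 (+/-) cells. Cox8c, another testis form, was near background. It was well above it on 3 of 3 null ES arrays and on no null XEN-like array, at least 2.83-fold lower (adjusted p = 0.0033). Cox4i2, the lung form of subunit IV, did not pass in any comparison, with differences of -0.05 and -0.34 in the 2 lines.

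**Figure D3:**
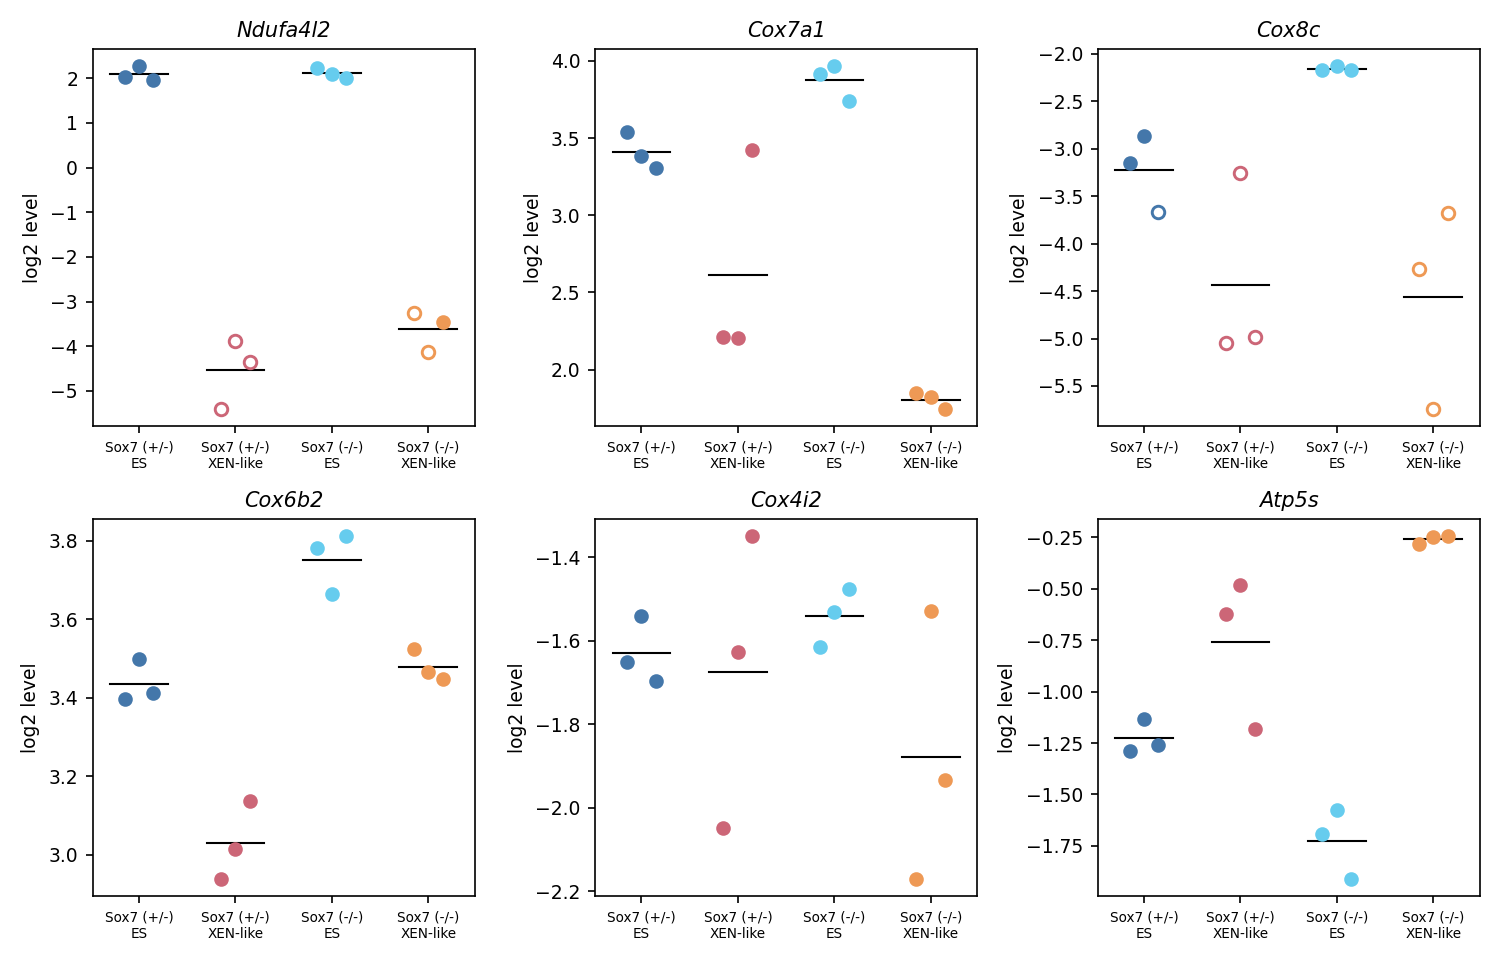
Level, as log2 over the array's 75th percentile, of 5 restricted isoform genes and of Atp5s on each array, by group, with group means as black lines. Open circles were not well above background, and each panel has its own scale. Ndufa4l2 drops with Dex in both lines, to background on all 3 Sox7 (+/-) and 2 of 3 null XEN-like arrays, and replicate 3 of the Sox7 (+/-) XEN-like group stands at 3.42 for Cox7a1 against 2.21 and 2.21.

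The comparison of ES cells asked whether the lines differed before Dex, and it shares its Sox7 (+/-) ES arrays with the first comparison. In null ES cells, 54 of the 74 genes were higher than in Sox7 (+/-) ES cells and 0 were lower (limma, no subunit lower at an unadjusted p under 0.05 either), with a median of 0.32, and 73 of the 74 differences were above 0. Among all genes, 30.1% were higher, 16.5% were lower and the median was 0.11. Over all 90 tested members, 62 were higher and 1 lower. No member passed 2-fold, beside 1.96% of all genes higher and 6.57% lower. The quartiles of the 74 differences were 0.22 and 0.38, an interquartile range of 0.16 beside 0.63 for all genes. By complex, the medians were 0.34, 0.40, 0.30, 0.32 and 0.28 for complexes I to V.

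The call on single subunits between the ES groups was lost in other fits. With the slide as a block 4 of the 74 were higher (median 0.20), beside 1176 of all 18946 genes. With spike-in scaling 0 were (median 0.17), beside 1539. With quantile normalization 18 were higher and 1 lower, beside 4116 and 3396. Relative to all genes, the subunits were higher by 0.21, which both scalings share by construction, and by 0.08 after quantile normalization and 0.08 in the slide block fit. The ES cell markers also differed between these groups, with 6 of 10 higher and 0 lower in null ES cells (median 0.87), as did the endoderm markers, with 2 of 12 higher and 7 lower, and the trophoblast markers, with 5 of 5 tested lower (median -1.68), and their part in the subunit difference was not tested. The largest difference among the 74 was in Ndufb5, a membrane arm subunit of complex I, with 5.01, 5.04 and 5.06 in Sox7 (+/-) ES cells and 5.55, 5.65 and 5.51 in null ES cells, which did not overlap. It was 0.53 ± 0.08 higher (adjusted p = 0.00039), and 0.56 with the slide as a block (adjusted p = 0.034). The core genes Sdha, Ndufv1 and Ndufs1 were higher by 0.47, 0.47 and 0.48.

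In XEN-like cells few subunits differed between the lines. Of the 74 subunits, 5 were higher and 5 lower in null XEN-like cells, with a median of -0.05, beside 20.2% of all genes higher and 15.1% lower. Over the 90 tested members, 8 were higher and 6 lower, and none passed 2-fold, beside 4.13% of all genes higher and 3.40% lower. Complex II had the highest median, 0.27. Sdhc was 4.17, 4.04 and 3.99 in Sox7 (+/-) and 4.42, 4.54 and 4.34 in null XEN-like cells, without overlap, and was higher by 0.37 ± 0.08 (adjusted p = 0.0071), and Sdhd and Sdha were higher by 0.35 and 0.18 while Sdhb was lower with -0.19. Complex III subunit Uqcrq and complex IV subunit Cox6c were the lowest constitutive members, with -0.35 ± 0.07 (adjusted p = 0.0038) and -0.31 ± 0.07 (adjusted p = 0.0078). With spike-in scaling 12 subunits were higher and 0 lower, beside 5750 and 1017 of all 18946 genes. The median of the subunits was at -0.06 relative to all genes.

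The Dex response of the 2 lines was compared by its interaction with genotype, which shares all samples with the comparisons above. It equals the XEN-like difference between the lines minus the ES difference, which had medians of -0.05 and 0.32 over the 74 subunits. A lower response in null cells is thus not separate from their higher levels before Dex, a comparison that depends on the slides. Of the 74 subunits, 38 had a lower response in null cells and 0 a higher one, with a median of -0.34, and 73 of the 74 differences were below 0. Among all genes, 15.7% were lower, 13.1% were higher and the median was -0.10. Over the 90 tested members, 44 were lower and 1 higher. Past 2-fold, 1 was lower and 1 higher, beside 3.15% of all genes lower and 6.99% higher. The medians were -0.36 for complex I, -0.19 for complex II, -0.33 for complex III, -0.44 for complex IV and -0.26 for complex V. Cox4i1 had the largest difference among constitutive subunits, -0.60 ± 0.12 (adjusted p = 0.0049), and Uqcrq had -0.57 ± 0.10 (adjusted p = 0.0021). With spike-in scaling no subunit passed and the median was 0.07. Among all 18946 genes, 3772 then had a higher and 420 a lower response, with a median of 0.31. With the slide as a block 6 subunits had a lower response (median -0.29), beside 1432 of all 18946 genes. The subunits were at -0.24 relative to all genes, a distance the 2 scalings share by construction, and at -0.11 after quantile normalization, -0.14 with normexp and -0.18 in the slide block fit.

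**Figure D4:**
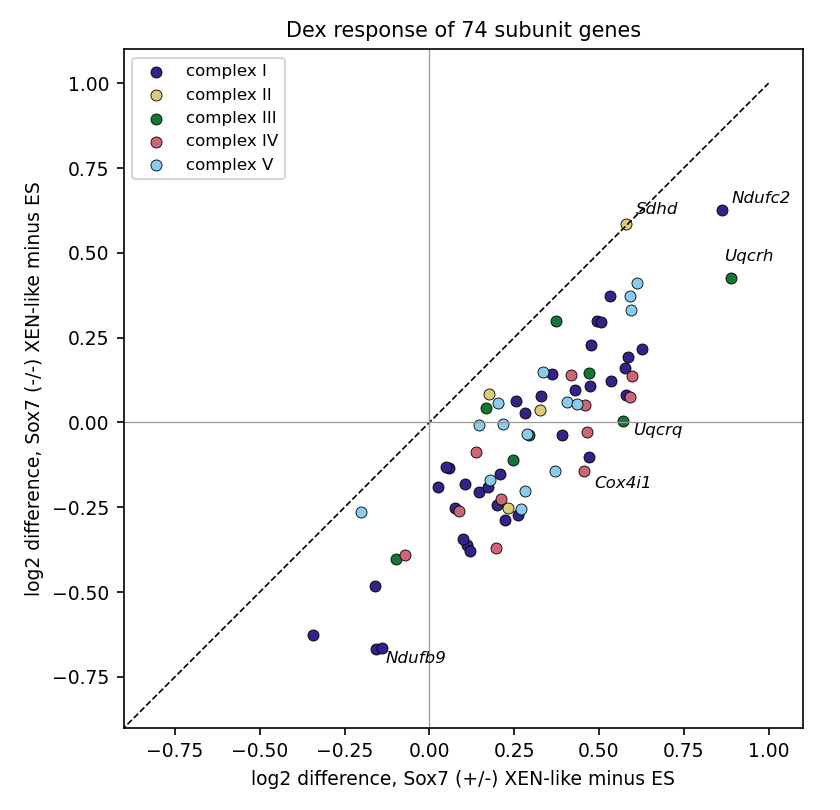
Log2 difference between XEN-like and ES cells for each of the 74 constitutive subunit genes in the Sox7 (+/-) line (horizontal axis) and the Sox7 (-/-) line (vertical axis), coloured by complex, under 75th percentile scaling. The dashed line marks equal differences. All points but Sdhd, with 0.58 and 0.59, lie below it.

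Besides the isoforms, Atp5s was the only member past 2-fold in any comparison. Atp5s, listed by RefSeq as Dmac2l and named for its role in coupling ATP synthase, had levels of -1.29, -1.13 and -1.26 in Sox7 (+/-) ES cells, -0.62, -0.48 and -1.18 in Sox7 (+/-) XEN-like cells, -1.69, -1.57 and -1.91 in null ES cells and -0.28, -0.25 and -0.24 in null XEN-like cells. Replicate 3 of the Sox7 (+/-) XEN-like group again lay among the ES arrays, and the null groups were far apart. It rose by 0.47 ± 0.16 (adjusted p = 0.027) and by 1.47 ± 0.16 (adjusted p = 1.7e-05), and the responses differed by 1.0 ± 0.23 (adjusted p = 0.0093). Without that replicate 3 the difference between the responses was 0.79. Cox7a1 was the member whose response differed most in the other direction, by -1.27 ± 0.38 (adjusted p = 0.032), and by -0.87 without that replicate. That call was lost under spike-in scaling (-0.87) and in the slide block fit (-1.23), and the call for Atp5s was lost with the slide as a block (0.98).

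Atp5sl, listed by RefSeq as Dmac2 and known to take part in complex I assembly, had differences of -0.43 and -0.88 with Dex, both past the threshold, and was 0.64 ± 0.08 higher in null ES cells (adjusted p = 0.00019). Of the 7 Ndufaf assembly factors, 2 were higher and 2 lower in Sox7 (+/-) XEN-like cells, beside 38.6% and 25.4% of all genes. In null XEN-like cells 2 were higher and 3 lower, beside 34.4% and 31.9% of all genes. Ndufaf6 was 2.10, 2.14 and 2.18 in Sox7 (+/-) ES cells and 1.30, 1.21 and 1.68 in XEN-like cells, without overlap, with a difference of -0.74 ± 0.12 (adjusted p = 0.00028) and of -0.59 in null cells. Ndufaf2 had -0.35 and -0.84, both past the threshold. The 2 probes of Ndufaf4 disagreed, with 0.52 and 0.26 for the brightest and -0.72 and -1.07 for the other, and it was the only member whose tested probes passed in opposite directions.

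The 13 subunits encoded by the mitochondrial genome changed little, apart from ND6. Of the 13, 4 were higher and 0 lower in Sox7 (+/-) XEN-like cells (median 0.14), beside 38.6% and 25.4% of all genes. Under spike-in scaling that median became -0.35, with 1 higher and 3 lower, beside 2266 and 8394 of all 18946 genes. In null XEN-like cells 5 were higher and 0 lower (median 0.20), beside 34.4% and 31.9% of all genes. In each line 1 was higher past 2-fold, beside 11.0% and 14.5% of all genes. In null ES cells 0 were higher and 2 lower than in Sox7 (+/-) ES cells (median -0.05), beside 30.1% and 16.5% of all genes. The array's annotation places 6 of the 13 probes (ND3, ND4L, COX2, COX3, ATP6 and ATP8) on a stretch of chromosome 1, so they cannot be assigned to the mitochondrial genome by their coordinates. ND6, a complex I subunit, is the only one of the 13 read from the light-strand transcript. The array probe of ND6 and that of ND5, its neighbour on the opposite strand, are shown to mark this (mm9, chrM:13552-13611, minus strand, and chrM:13402-13461, plus strand).
ND6: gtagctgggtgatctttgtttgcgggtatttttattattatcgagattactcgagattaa
ND5: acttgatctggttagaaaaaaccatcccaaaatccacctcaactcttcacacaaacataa

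ND6 had levels of 2.15, 2.38 and 2.09 in Sox7 (+/-) ES cells, 3.91, 4.02 and 3.94 in Sox7 (+/-) XEN-like cells, 0.62, 0.90 and 1.05 in null ES cells and 1.70, 1.81 and 2.13 in null XEN-like cells. The Sox7 (+/-) XEN-like arrays were the highest and the null ES arrays the lowest, and XEN-like arrays were above ES arrays in each line. ND6 rose by 1.75 ± 0.14 (3.36-fold, adjusted p = 1.8e-06) and by 1.02 ± 0.14 (adjusted p = 8.3e-05). In null cells it was lower with -1.35 ± 0.14 in ES cells (adjusted p = 5.1e-05) and -2.08 ± 0.14 in XEN-like cells (adjusted p = 4.3e-06). These 4 differences kept their sign and passed in the slide block fit and under spike-in scaling. ND5 did not pass in either line with Dex, with -0.25 and 0.14.

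**Figure D5:**
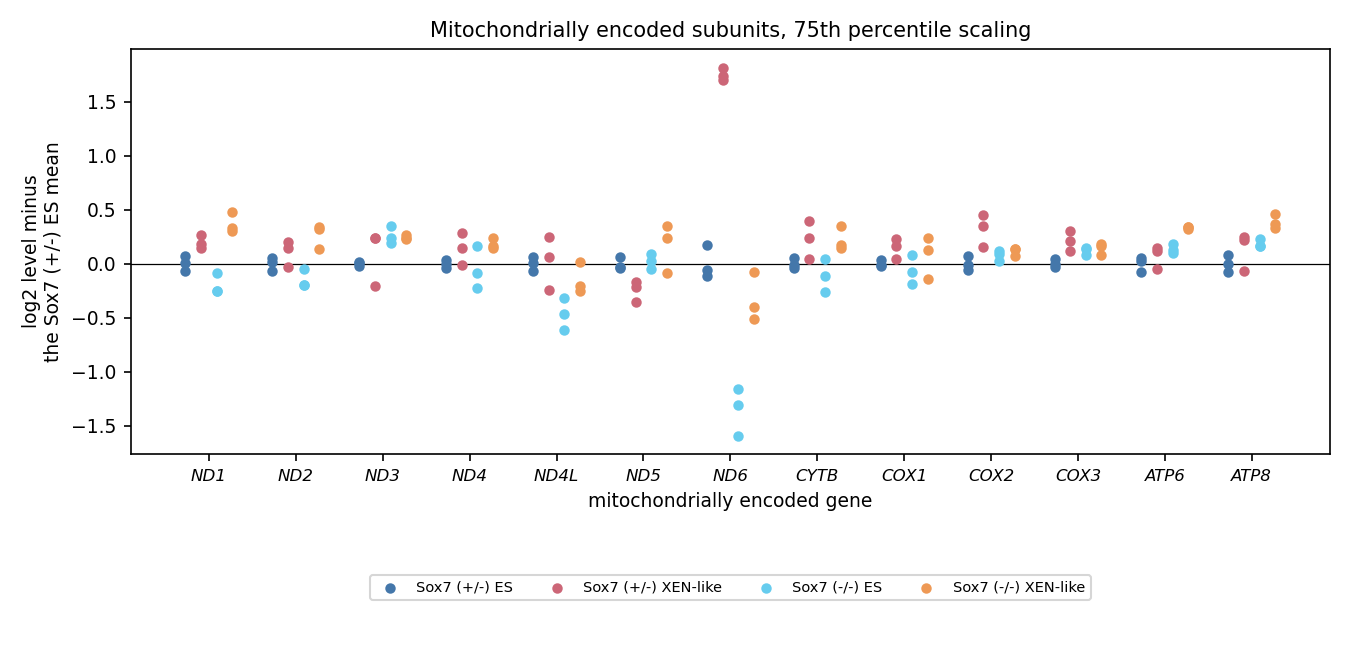
Log2 level of the 13 mitochondrially encoded subunit genes on each array, relative to the mean of the Sox7 (+/-) ES arrays, by group, under 75th percentile scaling. ND6 stands out, 1.75 above that mean in Sox7 (+/-) XEN-like cells and at -1.35 in null ES cells, while the other genes lie within 1 log2 unit of 0.

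Of 18 tested genes for carriers, ubiquinone synthesis and exchangers, 8 were higher and 6 lower in Sox7 (+/-) XEN-like cells, beside 38.6% and 25.4% of all genes, and 7 and 7 in null XEN-like cells, beside 34.4% and 31.9%, so both lay near the share of all genes. With spike-in scaling these counts were 2 and 10, and 5 and 6, beside 2266 and 8394, and 5138 and 5913, of all 18946 genes. Slc25a4, the heart-type ADP/ATP exchanger, was 6.84, 6.86 and 6.72 in Sox7 (+/-) ES cells and 7.80, 7.83 and 8.14 in XEN-like cells, and rose by 1.12 ± 0.10, without overlap. Coq2, of ubiquinone synthesis, rose by 1.05 and 1.25. Cyct, the testis cytochrome c, was at least 6.79-fold lower in Sox7 (+/-) XEN-like cells, where no array was well above background.

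Of 24 tested genes of the citrate cycle and pyruvate entry, 16 were higher and 4 lower in Sox7 (+/-) XEN-like cells (38.6% and 25.4% of all genes), and 10 and 5 in null XEN-like cells (34.4% and 31.9% of all genes). With spike-in scaling they were 1 and 7, and 6 and 4, beside 2266 and 8394, and 5138 and 5913, of all 18946 genes. The pyruvate dehydrogenase kinase genes, which restrain pyruvate entry, did not move alike. Pdk1 fell in both lines, with differences of -1.44 and -1.28. Pdk4 was at least 3.90-fold lower in Sox7 (+/-) XEN-like cells, where no array was well above background, and lower in null XEN-like cells, of which 1 of 3 arrays was well above background. Pdk2 was -0.19, 0.04 and -0.23 against 0.03, 0.03 and -0.27 in Sox7 (+/-) cells and -0.17, -0.07 and -0.37 against 1.14, 1.11 and 0.93 in null cells. It overlapped in the first line and was separate in the second, and the responses differed by 1.20 ± 0.17 (adjusted p = 0.00064).

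Of 16 tested regulators and factors of mitochondrial DNA expression, 3 were higher and 9 lower in Sox7 (+/-) XEN-like cells, beside 38.6% and 25.4% of all genes. In null XEN-like cells 3 were higher and 10 lower, beside 34.4% and 31.9% of all genes. Polg, the mitochondrial DNA polymerase, rose by 1.04 and 1.70, and the coactivator gene Ppargc1b, well above background on 2 of 3 arrays of each ES group, rose by 1.70 and 1.04, while its relative Pprc1 fell with -0.53 and -1.24. In null ES cells, 13 of the 16 were higher and 0 lower than in Sox7 (+/-) ES cells, beside 30.1% and 16.5% of all genes, with Peo1, the mitochondrial helicase, higher by 0.84 and Gabpa, an ETS factor, by 0.73. With spike-in scaling 6 of the 16 were higher, and with the slide as a block 3 were, beside 1539 and 1176 of all 18946 genes. In XEN-like cells 9 were higher in the null line, beside 20.2% of all genes. Of 26 tested assembly factors outside the naming rule, 17 were higher and 2 lower in Sox7 (+/-) XEN-like cells, beside 38.6% and 25.4% of all genes. In null XEN-like cells 13 were higher and 6 lower, beside 34.4% and 31.9%. With spike-in scaling the counts were 1 and 9, and 6 and 6, beside 2266 and 8394, and 5138 and 5913, of all 18946 genes. Sco2, a copper chaperone of complex IV, was higher by 0.89 in Sox7 (+/-) XEN-like cells. Ecsit, a complex I assembly factor, was lower with -1.05 in null XEN-like cells.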

How the data were processed

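Cy3-labelled total RNA was read on Agilent mouse arrays, 3 per group, and the authors quantified spots with Agilent Feature Extraction 10.7.3.1. The deposited scanner files hold the intensity of each spot, of which the processed signal (background-subtracted) was used. The deposited series table also holds intensity, within 0.4975% of the mean signal, without background subtraction or scaling between arrays. Signals were set as log2 minus each array's 75th percentile, and spots of a probe averaged. Probes that all 3 arrays of some group read well above background (25940) were fitted with limma 3.58.1 in R 4.3.3 over all 12 arrays, with Benjamini-Hochberg adjustment over these probes. A gene was read by its brightest probe, and a change was called past 2-fold at an adjusted p under 0.05. The array's 75th percentile signal was 252 to 416, and 41.7 to 52.3% of spots were well above background. The number of arrays limits the precision. Named genes were fixed core subunits and isoforms, members past 2-fold, the 3 largest rises and falls per comparison whose groups did not overlap, and at most 4 genes per other list. Ndufb4, Ndufb9, Ndufs6 and Ndufaf4 were chosen after their values were seen. Members and lists were chosen with earlier results of these data known. Scripts were tested on simulated data. Alternatives were spike-in scaling, quantile normalization, normexp, the deposited table, no filter, every probe, slide and replicate blocks, and leaving out each array. Replicate numbers did not mark pairs, since deviations of same-numbered arrays correlated at -0.05 to 0.13.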

Additional observations from a re-analysis of the deposited data

Results flagged for a closer look

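The Dex response differed between the lines past 2-fold in 4 single genes of the members and the other pathway lists. This was a test of the interaction itself, which further genes passed below 2-fold, among them a group of members. Cox7a1 had -1.27 (log2, null minus Sox7 (+/-)), a call lost under spike-in scaling and in the slide block fit. Atp5s had 1.0, a call lost in the slide block fit. Both differences were smaller in size without Sox7 (+/-) XEN-like replicate 3. Pdk2 had 1.20. Pdk4 had -1.51 as a fitted value, with no Sox7 (+/-) XEN-like array and 1 of 3 null XEN-like arrays well above background, so its size was not measured, and it did not pass under spike-in scaling (-1.1). Among the 90 tested members, 44 had a lower response in null cells under 75th percentile scaling, beside 15.7% of all genes. Under spike-in scaling 0 did, beside 420 of all 18946 genes.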

How the results depend on the processing

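Counts over the 90 tested members moved with several settings. In Sox7 (+/-) cells with Dex, the genes higher, lower and past 2-fold were 51, 8 and 1, with a median of 0.27. Spike-in scaling gave 2, 32 and 4 (median -0.22), the deposited values 1, 18 and 3 (-0.19), and quantile normalization 33 and 15 (0.0714), and 79 of the member probes were higher when every probe was counted. In null cells with Dex, from 17 higher and 28 lower, spike-in scaling gave 6 higher, the deposited values 4 and 12, quantile normalization 28 higher, the slide block 11 and 15, and every probe 26 higher. In XEN-like cells, from 8 higher and 6 lower (median -0.04), spike-in scaling gave 21 and 0 with 1 past 2-fold (0.22), the deposited values 40 and 0 (0.38), normexp 16 and 3, no filter 4 and 2, the slide block 4 higher, quantile normalization 1 past 2-fold, and every probe 12 lower. In ES cells, from 62 higher and 1 lower (median 0.32), spike-in scaling gave 2 higher (0.17), the deposited values 12 and 0, no filter 40 and 0, the slide block 6 and 0 (0.23), and quantile normalization 23 higher (0.12). For the difference in response, from 1 higher, 44 lower and 2 past 2-fold (median -0.33), spike-in scaling gave 5 higher and 0 lower (0.0760), the deposited values 0 lower and 1 past 2-fold (0.0956), quantile normalization 12 lower and 1 past 2-fold (-0.13), normexp 29 and 1, no filter 27 lower, and the slide block 0 higher, 8 lower and 0 past 2-fold. The slide block with spike-in scaling, chosen after seeing the data, gave 2, 29 and 4 (-0.22), then 3 and 11, then 0 lower and 1 past 2-fold (0.21), then 0 and 0 (0.13), and 0, 0 and 0 (0.0823) in the same order of comparisons. With the replicate number as a block, which does not mark pairs here, the XEN-like cells had 2 lower, the response had 1 past 2-fold, and 58 members were higher between the ES groups. Leaving out each array in turn, in the same order, gave 46 to 53 higher, 6 to 10 lower and 1 to 2 past 2-fold, then 12 to 20, 21 to 31 and 4, then 4 to 14, 2 to 5 and 0 to 2, then 45 to 73, 0 to 1 and 0, and 1 higher, 26 to 49 lower and 0 to 2 past 2-fold. The 14 came without Sox7 (+/-) XEN-like replicate 3, the 4 higher without null XEN-like replicate 1, and the 49 without Sox7 (+/-) XEN-like replicate 3. The difference in response fell to 26 lower without Sox7 (+/-) ES replicate 3 or null XEN-like replicate 3.

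Single genes reversed as follows, as log2 differences. In Sox7 (+/-) cells with Dex, under spike-in scaling with and without the slide block, Atp5c1 had -0.15, COX2 -0.17, Cox4i1 -0.0304, Cox5b -0.0222, Cox6a1 -0.0272, Cox7a2 -0.0667, Cox7a2l -0.16, Sdha -0.16, Sdhb -0.25 and Uqcrfs1 -0.11. With the deposited table, Atp5c1 had -0.10, COX2 -0.10, Cox5b -0.0121, Cox7a2 -0.10, Cox7a2l -0.17, Sdha -0.0949, Sdhb -0.19 and Uqcrfs1 -0.12. In XEN-like cells Cox6a1 had 0.0426 under spike-in scaling, 0.0360 with the slide block too and 0.21 with the deposited table, where Cox6c had 0.14 and Uqcrq 0.0262, and Cyct had -0.0505 with normexp. Between ES groups Ndufa4 had -0.0236 under the slide block with spike-in scaling. For the response, Coq6 had 0.0360 with the deposited table, and Slc25a5 had 0.0988 with spike-in scaling, 0.0784 with the deposited table and 0.0850 with both spike-in scaling and slide block. The causes were not tested.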
